A study of Caenorhabditis elegans with 2 samples.

Results

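The genes described here are the small nuclear RNA (snRNA) genes of Caenorhabditis elegans, taken as every nuclear gene with the biotype snRNA in the Ensembl annotation of the assembly WBcel235, the same assembly as ce11. They numbered 129 of 46890 nuclear genes. The readout was chromatin immunoprecipitation followed by sequencing (ChIP-seq) of DMD-4, a DM-domain transcription factor, in whole hermaphrodite late embryos, collected 5 h after egg bleaching had synchronized them. Both samples, biological replicates 1 and 2, were of strain OP418, unc-119(tm4063) III; wgIs418, in which the transgene adds DMD-4 with a GFP-FLAG tag at its C terminus, and an antibody to GFP was used on sonicated chromatin. The labels give neither the regulatory sequence that drives the transgene nor the tissues that make the tagged protein, and whole embryos mix all cell types. With 1 group there were no conditions to compare, and control libraries entered only through the authors' peak calling. DM-domain proteins carry a zinc-finger DNA-binding module first described in the sex-determination genes doublesex and mab-3.

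Spliceosomal snRNAs are short, untranslated RNAs that, bound to proteins, remove introns from pre-mRNA: U1 pairs with the 5′ splice site, U2 with the branch point, U5 holds the exons, and U6 forms part of the catalytic core. Most are made by RNA polymerase II from small promoters that carry a proximal sequence element read by the snRNA-activating complex, whereas U6 is made by RNA polymerase III and has a TATA box as well. Nematodes also use spliced leader RNAs, which give a short 5′ exon to many mRNAs by trans-splicing. SL1 comes from the sls-1 genes and SL2 from the sls-2 genes, and SL2 goes mainly to downstream genes of operons. The smy genes encode SmY RNAs, nematode RNAs that associate with the trans-splicing machinery.

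The annotation used here gave names but no U1 to U6 class, so the genes were sorted by sequence. The sls-2 (18 genes), sls-1 (12) and smy (10) genes were recognised by name. The others were joined where 2 annotated sequences aligned at 75% identity or more, and each group of at least 5 genes is called after 1 member. The W05B2.8 group held 24 genes, and 22 of them contained ACAGAGA, the letters of the conserved U6 box, which occurred in 0 of the other 105 snRNA genes. The sup-6 group held 13 genes, 12 of them with CTTACCT, which is complementary to the 5′ splice site. It included sup-6 and sup-39, known in C. elegans as U1 snRNA genes that can mutate to suppressors. The F11A5.14 group held 19 genes, 18 of them with GTAGTAT, the branch-point pairing letters of U2, and the F42C5.12 group held 12 genes, 11 of them with CCTTTTA, letters of the U5 loop. A set of 5 genes of 142 to 144 bases, the C52E4.8 group, had none of these motifs, and 16 genes were left ungrouped. These matches describe letters, read on the gene strand, and do not replace a class annotation.

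The annotated sequences of sls-2.1, sup-6 and F11A5.14 show how 3 of the larger groups with candidate regions differ. Capitals mark the group's motif named above and, where present, ATTTTTG, a form of the site that binds the Sm protein ring. ATTTTTG was in 72 of the 129 genes: in all genes of the sup-6, F11A5.14 and C52E4.8 groups and all smy genes, in 11 of 12 genes of the F42C5.12 group, in 13 of 18 sls-2 genes, in 1 of 16 ungrouped genes and in 0 of 24 genes of the W05B2.8 group, as in 0 of 12 sls-1 genes. Only these exact letters were searched, so a gene without them is not shown to lack an Sm site. Sequences here and below are from the RefSeq genome WBcel235.
sls-2.1 gene, II:5844865-5844974, plus strand: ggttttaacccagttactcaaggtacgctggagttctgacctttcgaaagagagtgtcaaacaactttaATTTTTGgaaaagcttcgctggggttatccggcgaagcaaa
sup-6 gene, II:12944803-12944967, minus strand: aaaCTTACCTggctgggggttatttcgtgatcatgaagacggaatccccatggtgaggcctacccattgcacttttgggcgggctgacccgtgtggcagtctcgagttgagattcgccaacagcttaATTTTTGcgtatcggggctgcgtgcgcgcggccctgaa
F11A5.14 gene, V:16225701-16225887, minus strand: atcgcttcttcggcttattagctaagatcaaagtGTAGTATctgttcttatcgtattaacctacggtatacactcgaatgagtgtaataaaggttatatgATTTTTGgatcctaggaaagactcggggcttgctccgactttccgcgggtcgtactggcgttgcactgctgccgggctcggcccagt

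The promoters shared short elements as well, shown for these genes, for F42C5.12, W05B2.8 and C28A5.7, and for K09C6.12, which has the same gene sequence as W05B2.8 and C28A5.7. Each is the 100 bases before the annotated start on the gene strand, and capitals mark the words AACCCG, then TGTCGG, then GTACAC, then TATATA where they occur. The first 3 were the first, the second and the fourth of all 6-letter words by how much more frequent they were before snRNA genes than before other genes, the third being AACCCG moved by 1 base, and TATATA was the leading word of the W05B2.8 group. In F11A5.14, TGTCGG shares a letter with GTACAC and the pair runs on as 1 block, as it did in 20 of the 21 snRNA promoters that held both words, 13 of them in the F11A5.14 group.
W05B2.8 promoter, III:10989579-10989678, plus strand: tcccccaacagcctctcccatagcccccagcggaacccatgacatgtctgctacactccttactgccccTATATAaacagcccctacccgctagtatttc
C28A5.7 promoter, III:4426956-4427055, minus strand: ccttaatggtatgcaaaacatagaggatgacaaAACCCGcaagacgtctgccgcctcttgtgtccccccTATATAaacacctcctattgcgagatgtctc
K09C6.12 promoter, V:858991-859090, plus strand: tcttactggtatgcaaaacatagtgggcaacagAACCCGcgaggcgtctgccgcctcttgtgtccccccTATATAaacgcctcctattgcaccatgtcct
sls-2.1 promoter, II:5844765-5844864, plus strand: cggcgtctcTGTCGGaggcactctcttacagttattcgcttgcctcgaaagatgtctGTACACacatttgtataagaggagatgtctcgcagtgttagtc
sup-6 promoter, II:12944968-12945067, minus strand: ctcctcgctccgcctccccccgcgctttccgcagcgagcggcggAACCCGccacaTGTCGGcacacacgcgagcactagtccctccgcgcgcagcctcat
F11A5.14 promoter, V:16225888-16225987, minus strand: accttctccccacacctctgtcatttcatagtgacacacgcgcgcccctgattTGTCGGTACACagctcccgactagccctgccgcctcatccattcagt
F42C5.12 promoter, IV:7316632-7316731, plus strand: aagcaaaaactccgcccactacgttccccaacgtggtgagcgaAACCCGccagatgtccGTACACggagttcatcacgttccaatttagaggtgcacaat

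AACCCG stood in 43 of 129 snRNA promoters (33.3%), against 0.881% of the 46761 other nuclear genes, at a median of 58 bases before the start (positions -71 to -55). TGTCGG stood in 42 (32.6%), against 1.04%, and GTACAC in 35 (27.1%), against 1.01%. Between 80 and 35 bases before the start, a window set after the positions were seen, any of these words was found in 79 snRNA promoters (61.2%), against 1.31% of other genes. By group the count was 19 of 19 for F11A5.14, 12 of 12 for F42C5.12, 17 of 18 for sls-2, 12 of 13 for sup-6, 7 of 10 for smy, 3 of 5 for C52E4.8, 6 of 24 for W05B2.8, 0 of 12 for sls-1 and 3 of 16 for the ungrouped genes. TATATA lay at positions -31 or -30 in 16 of the 24 W05B2.8 group promoters (66.7%). It lay 35 to 20 bases before the start in 2 of the 105 other snRNA promoters and in 1.33% of other genes. No overlap with a known binding site was searched for, and a match is a description of letters only.

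The authors deposited lists of candidate regions ranked by a signal value relative to control, in arbitrary units, with rank 1 the strongest. Each list held 30000 regions, for the 2 replicates pooled and for each replicate. The top 652 pooled regions are those that passed the threshold on irreproducible discovery rate (IDR), a measure of how alike replicates rank regions, and are called reproducible peaks below. Candidates outside it include background by design. Each gene was given the strongest pooled candidate whose summit, the point of highest signal, lay within 500 bp of the gene.

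Of the 129 snRNA genes, 49 had a candidate (38.0%, exact Clopper-Pearson 95% interval 29.6 to 46.9), against 39.5% of all nuclear genes. Reproducible peaks lay at 4 snRNA genes (3.1%, interval 0.851 to 7.75), against 2.34% of all nuclear genes. Both background shares lay within these intervals, so a difference of the snRNA genes from all genes was not detectable at this precision. The intervals cover counting error over genes only. Gene length and type enter the background: the 15363 piRNA genes, with a median length of 21 bases, had a candidate in 10.6%, and without them 53.6% of nuclear genes had one. A reproducible peak lay at 0.117% of piRNA genes and, without them, at 3.42% of nuclear genes. Measured within 500 bp of the gene start alone, which sets gene length aside, 45 snRNA genes had a candidate (34.9%), against 36.9% of nuclear genes other than piRNA genes and 34.9% of protein-coding genes. By that measure 4 snRNA genes had a reproducible peak (3.1%), against 2.47% and 1.49% of these genes. The same shares by gene body were higher at other short RNA genes, with 191 of 346 snoRNA genes (55.2%) and 414 of 612 tRNA genes (67.6%) near a candidate, and 51 (14.7%) and 125 (20.4%) near a reproducible peak. Few snRNA genes lay beside these: sls-2.9 and C53D6.12 had a tRNA gene within 500 bp, and smy-1 and F56A12.5 a snoRNA gene. None of these 4 had a reproducible peak.

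The candidate share differed widely between groups. It was highest for sls-2 genes, at 15 of 18 (83.3%, interval 58.6 to 96.4) over 14 distinct regions, against 39.5% of all genes. It was 8 of 13 for the sup-6 group (61.5%, 31.6 to 86.1), 9 of 19 for the F11A5.14 group (47.4%, 24.4 to 71.1), 5 of 12 for the F42C5.12 group (41.7%, 15.2 to 72.3) and 1 of 5 for the C52E4.8 group. It was 1 of 10 for smy genes (10.0%, 0.253 to 44.5), and 0 of 12 for sls-1 genes (exact interval 0 to 26.5; taking 3 counts as the limit that a count of 0 allows gives up to 25.0%). The W05B2.8 group, most of which holds the U6 letters, had a candidate at 7 of 24 genes (29.2%, 12.6 to 51.1), against 42 of 105 for all other snRNA genes (40%, 30.6 to 50). It had 2 of the 4 reproducible peaks (8.33%, 1.03 to 27), against 2 of 105 (1.90%, 0.232 to 6.71) for the other snRNA genes, both at sls-2 genes. The intervals overlap for both shares. No test was made, since genes of a group share sequence and are not replicates, whereas the intervals treat them as independent. The order of the groups was not computed for stronger candidates alone, where it may differ. Genes with a candidate had a median rank of 8730 in sls-2 and of 5994 in the sup-6 group.

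**Figure D1:**
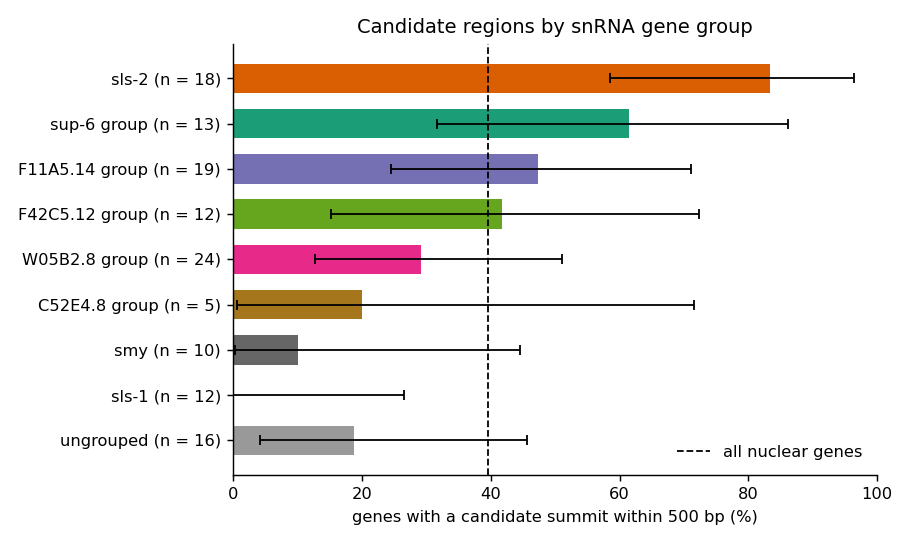
Share of snRNA genes with a pooled candidate summit within 500 bp, in percent, by gene group. Bars give the share, lines the exact 95% interval, and the dashed line the 39.5% of all nuclear genes. The sls-2 bar stands at 83.3% and the sls-1 bar at 0.

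The strongest region at an snRNA gene was at W05B2.8 (III:10989679-10989780, plus strand), which lies in an intron of dhc-4, a dynein heavy chain gene, on the same strand. The region, III:10989627-10989946, had pooled rank 25, a signal of 340.0 and a -log10 q of 2.62. Its ranks were 23 in replicate 1 and 37 in replicate 2, with signals of 175.0 and 170.9, each on its own list's scale. The summit was 146 bp after the gene start, 45 bp past the gene end. The next candidate around it was at rank 2265, with a summit 1461 bp after the start.

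The SL2 RNA gene sls-2.4 (I:4172206-4172315, plus strand) had the second strongest, I:4172123-4172572, at pooled rank 102 with a signal of 223.8. It ranked 56 in replicate 1 (signal 131.2) and 192 in replicate 2 (signal 96.0), and its summit lay 142 bp after the start, 33 bp past the gene end. The gene lies between protein-coding genes, and the summit stood at -759 bp from the start of egg-5, a gene of the oocyte-to-embryo transition. The ncRNA gene R12E2.18 overlaps sls-2.4 on the opposite strand.

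Another SL2 RNA gene, sls-2.1 (II:5844865-5844974, plus strand), had region II:5844606-5845055 at pooled rank 219 with a signal of 163.8. It ranked 171 in replicate 1 (signal 85.4) and 371 in replicate 2 (signal 73.7). This was the only one of the 4 with its summit upstream, at -34 bp from the start and so within the promoter sequence printed above. The summit also fell in the promoter window, 1000 bp before to 200 bp after a transcript start, of H41C03.3.

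The weakest of the 4 was at C28A5.7 (III:4426854-4426955, minus strand), in an intron of C28A5.6 on the same strand. Region III:4426615-4427064 had pooled rank 496, a signal of 117.9 and a -log10 q of 1.36. It ranked 466 in replicate 1 (signal 56.1) and 579 in replicate 2 (signal 62.8), with the summit 115 bp after the start and 14 bp past the gene end. A second candidate, rank 4431, had its summit at -88 bp from the same gene's start. In each replicate alone, all 4 of these regions ranked within the top 652. The IDR threshold selects on agreement between replicates, so these ranks are no independent support for the 4 regions. The first gene outside the reproducible list was F36A4.23, at pooled rank 1126 with a signal of 88.5 and replicate ranks of 1295 and 3580. The last reproducible peak had a signal of 106.4. F36A4.23 is also of the W05B2.8 group but does not hold ACAGAGA. Its region did not overlap the gene, and the summit lay 243 bp past the gene end.

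**Figure D2:**
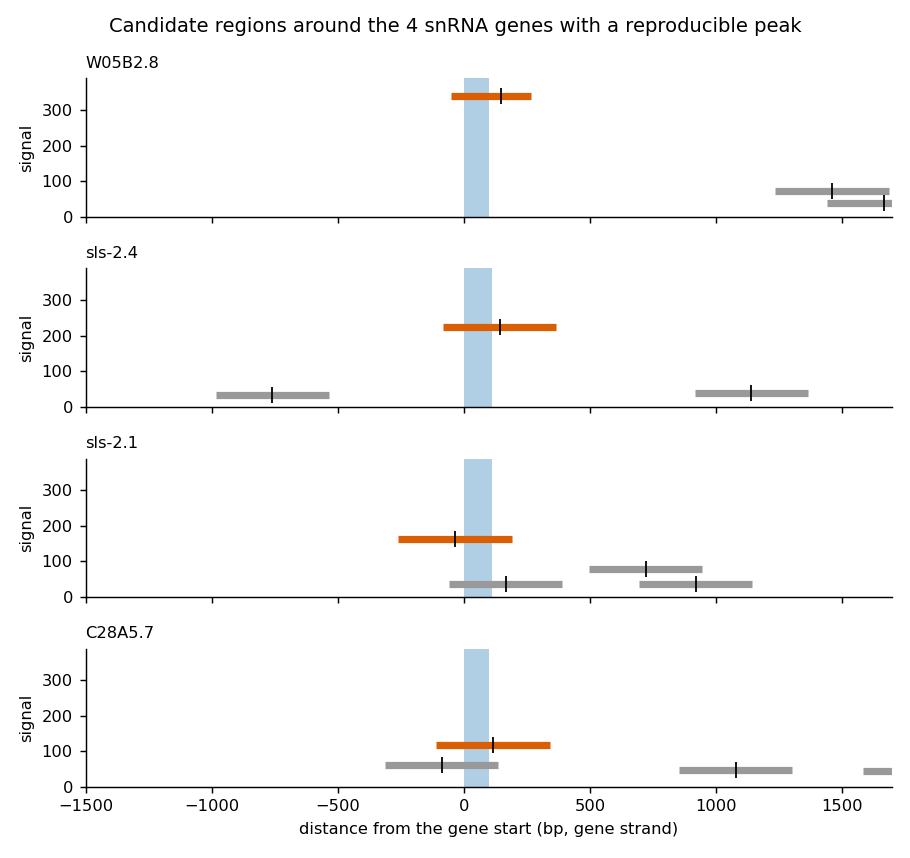
Candidate regions around the 4 snRNA genes with a reproducible peak, by distance from the gene start in bp on the gene strand (horizontal) and pooled signal in arbitrary units (vertical). Blue marks the gene, orange the reproducible peak, grey other candidates and black ticks the summits. The summits are at 146, 142, -34 and 115 bp.

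The gene sequence of W05B2.8 is not unique, which bears on any value read at it. The same sequence occurred at 17 places in the genome, all annotated as snRNA genes, 3 of them 1 base shorter, and 14 of the 17 inside introns. Candidates lay at 6 of these copies: W05B2.8 (rank 25), C28A5.7 (496), F54D8.7 (3266), R07E5.16 (10326), T08B6.62 (22727) and Y9C9A.111 (23592). The other 11 had none, among them K09C6.12 and the cluster K09B11.11 to K09B11.16 in an intron of mam-3. The share of 36-base words within 500 bp of the gene that occur once in the genome was a median of 91.9% (82.4 to 93.3) at copies with a candidate and 67.9% (57.1 to 92.0) at those without. It was 93.3% at W05B2.8 and 82.4% at C28A5.7, and its part in the ranks was not tested. No source used here gives the read length, so 36 bases is a choice of scale.

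Copy number differed between the groups as well. Over all snRNA genes, 46 had an exact copy elsewhere, and 13 of these had a candidate (28.3%, 16.0 to 43.5), against 36 of the 83 with a single sequence (43.4%, 32.5 to 54.7). The 46 include all 12 sls-1 genes, none of which had a candidate. A candidate was found at 1 of 18 genes whose surroundings were under 50% unique, at 17 of 45 between 50% and 90% and at 31 of 66 from 90% up. All 12 sls-1 genes were in the lowest class, with a median of 4.70% (0 to 29.5), and all lie on chromosome V within 1000 bp of an rRNA gene, and the part of either in the absence of candidates was not tested. The smy genes were 97.0% to 100% unique, and smy-1 was the only one with a candidate, at rank 15595 and a summit 296 bp after its start. That summit lay 220 bp past the gene end and in the promoter windows of C33A12.3 and C33A12.4, so the signal cannot be assigned to smy-1 alone. In the sls-2, W05B2.8 and F11A5.14 groups the median was higher at genes with a candidate than at those without. It was 95.2% at sls-2 genes with a candidate and 80.4% at those without, 91.7% and 81.1% in the W05B2.8 group, and 84.9% and 70.4% in the F11A5.14 group. The medians were closer in the sup-6 group (89.7% with a candidate and 87.3% without) and the F42C5.12 group (91.4% and 90.8%). The order was the other way among ungrouped genes (90.6% with a candidate and 100% without). It was also the other way in the C52E4.8 group, with 89.6% at its 1 gene with a candidate and 91.3% without. The 3 sls-2 genes without a candidate were sls-2.12, sls-2.16 and sls-2.17.

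Below the reproducible peaks the sls-2 genes were spread through the ranking. Their 15 genes with a candidate had 14 distinct regions, at a median rank of 8730 and from 102 to 23785. Regions with different coordinates count as distinct, so those at sls-2.14 (rank 6373) and sls-2.15 (rank 8730) count apart although they overlap. Both matched ranks 5663 in replicate 1 and 5352 in replicate 2. The neighbours sls-2.2 and sls-2.3 shared the region at rank 1220, which ranked 1606 in replicate 1 and 1418 in replicate 2. Its summit was 148 bp after the start of sls-2.2 and 527 bp after that of sls-2.3. The region at sls-2.9 had rank 1537, with 2305 and 1451 in replicates 1 and 2 and a summit at -226 bp, and a tRNA gene lies within 500 bp of sls-2.9. At sls-2.18 the rank was 3510, with 10004 in replicate 1 and 2724 in replicate 2.

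The sup-6 group had 8 genes with a candidate over 6 regions and no reproducible peak. At 7 of the 8, all but sup-6 itself, the summit lay in the promoter window of a protein-coding gene. Those signals cannot be assigned to the snRNA genes alone. The best of the group was sup-39 at rank 1564 with a signal of 80.8 and a summit at -757 bp from the start of eif-2Bgamma. That region ranked 977 in replicate 1 and 7688 in replicate 2. The same region was counted for mir-1831, a 22-base entry of biotype snRNA that lies inside sup-39 and was left ungrouped. At H27M09.6 the rank was 1752, but the replicates placed it at 750 and 16886, and its summit lay at -144 bp from the start of syp-4. The suppressor gene sup-6 had rank 2399 with the summit at -37 bp from its start, at 12246 in replicate 1 and 824 in replicate 2. F08H9.11 was at rank 4773, overlapped nothing in the list of replicate 1, and stood at 1063 in replicate 2. The 2 replicates therefore ordered the regions of this group very differently.

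In the F42C5.12 group the best regions were at F42C5.12 (rank 1987, replicate ranks 3211 and 2325), F32B5.9 (3463, 10078 and 2308) and F38E11.10 (3470, 13024 and 2524). The summit at F42C5.12 lay 246 bp past the gene end and 4 bp after the start of the protein-coding gene F42C5.9. At F32B5.9 it lay 151 bp past the gene end and 209 bp after the start of cpz-1, and at F38E11.10 it lay at -403 bp from the start of F38E11.9. These signals cannot be assigned to the snRNA genes alone. The F11A5.14 group began at C05G6.4, with rank 3701 and replicate ranks of 4242 and 6963. Of its 9 regions, 6 overlapped a candidate of replicate 2 but none of replicate 1. The gene F11A5.14 itself was one of these, at pooled rank 8365 and rank 3859 in replicate 2. C52E4.8 had rank 2911, with 2491 in replicate 1 and 19664 in replicate 2. Its region was also the candidate in the promoter of snr-4, an Sm protein gene, at -221 bp from the snr-4 start, so the signal cannot be assigned to 1 of the 2 genes. Within the W05B2.8 group, F54D8.7 was next after F36A4.23, at rank 3266 with replicate ranks of 10465 and 6033. The ungrouped gene of best rank after mir-1831 was F35B3.10, at 20021.

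**Figure D3:**
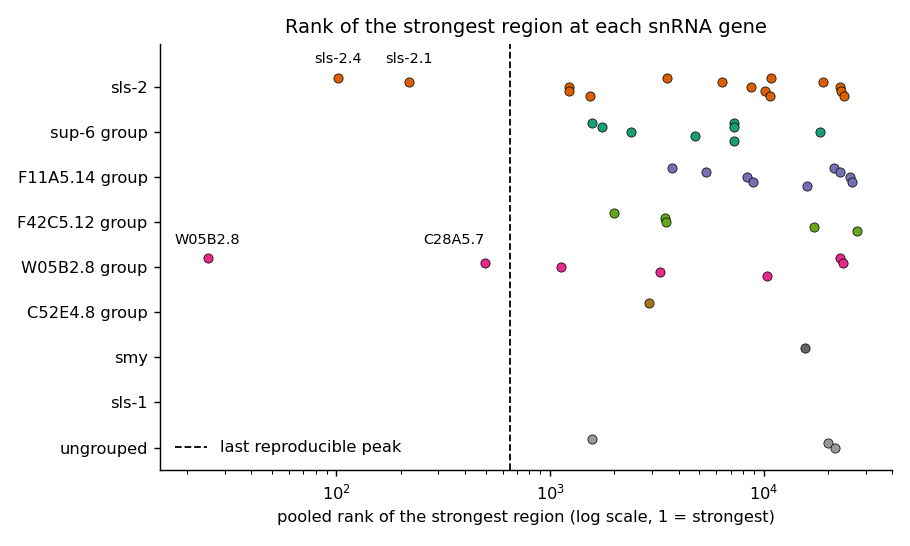
Pooled rank of the strongest region at each of the 49 snRNA genes with a candidate, on a log scale with 1 the strongest, by gene group. The dashed line marks rank 652, the last reproducible peak, and 4 named genes lie left of it. Vertical scatter within a group only separates points.

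Across the 49 genes, 36 had a region that overlapped a candidate in both replicate lists by at least 1 bp, 3 in replicate 1 only, 9 in replicate 2 only and 1 in neither. Counted as distinct regions, with the overlapping ones at sls-2.14 and sls-2.15 counted apart, 32 of 45 were in both lists (71.1%), against 63.5% of all 29988 nuclear candidates. The share followed rank as it did genome-wide: it was 13 of 14 between ranks 653 and 5000, against 98.4% of all candidates there, 8 of 10 between 5001 and 15000, against 83.4%, and 7 of 17 below that (41.2%), against 38.5%. These shares do not measure how far apart the replicate ranks were. Beyond the reproducible list some were far apart, as at H27M09.6 (750 and 16886), and others close, as at sls-2.2 (1606 and 1418). The spread over all candidates was not computed.

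**Figure D4:**
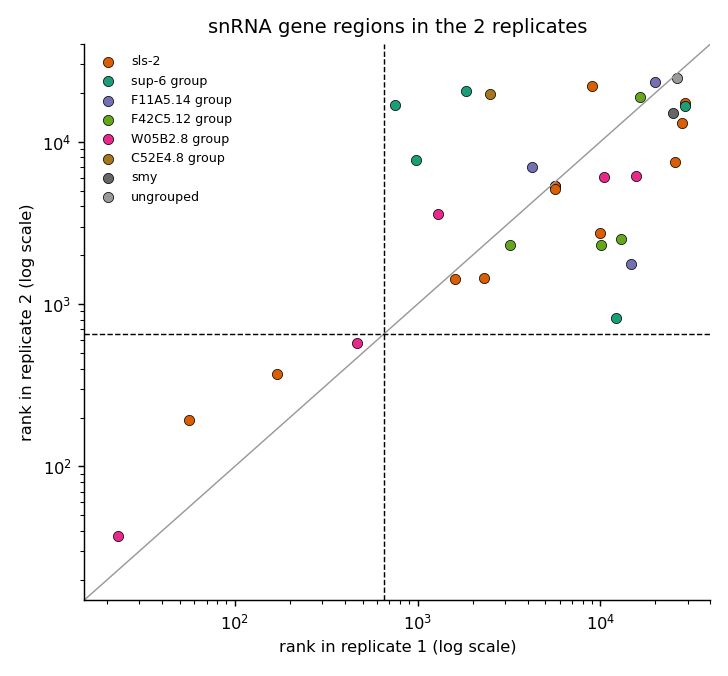
Rank in replicate 1 (horizontal) and replicate 2 (vertical) of the 32 distinct snRNA gene regions found in both lists, on log scales, coloured by gene group. The grey diagonal marks equal ranks and the dashed lines rank 652. The regions at sls-2.14 and sls-2.15 fall on the same point. The 4 reproducible peaks, which were selected by IDR, lie along the diagonal at lower left, and the rest spread widely on both sides.

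Whether the summits gather at the promoter was not tested. The assignment admits summits on both sides of a gene alike, and the positions expected of evenly placed summits were not computed. The counts and the range that follow are therefore a description only. Of the 49 genes, 17 had the summit upstream of the gene, 9 inside it and 23 downstream, at a median of 133 bp after the start (-480 to 590). Over the 45 distinct regions the counts were 17, 7 and 21 and the median was 99 bp. Replicate 1 alone gave a median of 154 bp and replicate 2 alone 33 bp. Since these genes are short, with a median length of 109 bases, and no source used here gives the fragment size, the summit position alone does not separate the promoter from the gene or its end. Of the 45 regions, 16 had a summit in a protein-coding promoter window (35.6%), against 33.2% of all nuclear candidates. ACATTGT, a core of DM-domain recognition, was searched on both strands within 100 bp of the summit. It was found in 1 of 45 regions (2.22%), the one shared by sls-2.2 and sls-2.3, against 2.76% of all nuclear candidates.

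**Figure D5:**
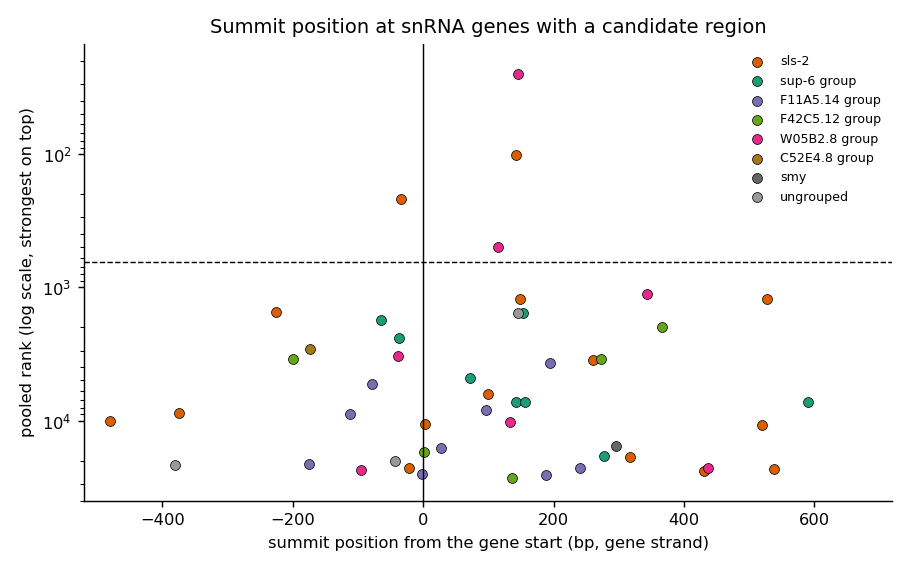
Summit position from the gene start in bp on the gene strand (horizontal) against pooled rank (log scale, strongest on top) for the 49 snRNA genes with a candidate, coloured by gene group. The vertical line is the gene start and the dashed line rank 652. Summits run from -480 to 590 bp, with 3 of the 4 reproducible peaks between 115 and 146 bp.

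The promoter words other than TATATA were more frequent at snRNA genes with a candidate, but the groups differed in both, and the words and the window were chosen from these same promoters. Any of the 3 words AACCCG, or TGTCGG, or GTACAC, within the window of 80 to 35 bases before the start, was found at 42 of 49 genes with a candidate (85.7%) and at 37 of 80 without (46.3%). In the sls-2, sup-6, F11A5.14 and F42C5.12 groups combined, it was found at 36 of 37 genes with a candidate (97.3%) and at 24 of 25 without (96.0%), a level that leaves no room for a difference. In all other snRNA genes it was found at 6 of 12 with a candidate and at 13 of 55 without (23.6%), which include the 12 sls-1 genes with no word and no candidate. TATATA, 35 to 20 bases before the start, was present at W05B2.8 and C28A5.7 and at K09C6.12, which had no candidate. By place, 24 of 55 genes inside introns of protein-coding genes had a candidate (43.6%, 30.3 to 57.7), 24 of 62 between such genes (38.7%, 26.6 to 51.9) and 1 of 12 that touched an exon (8.33%, 0.211 to 38.5).

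The protein-coding genes that make or use snRNAs were read in their promoter windows. Of 67 such genes in 5 lists, 46 had a candidate (68.7%), against 40% of all protein-coding genes. Reproducible peaks were in 5 promoters (7.46%), against 2.05% of protein-coding genes. Among Sm and LSm core genes, 9 of 15 had a candidate and 1 a reproducible peak: snr-1, which encodes an Sm ring protein, with rank 155, a signal of 188.3, replicate ranks 219 and 105 and a summit at -423 bp from the start. Of the genes for snRNP-specific and assembly proteins, 21 of 28 had a candidate and 2 a reproducible peak. These were prp-19, a ubiquitin ligase of the spliceosome (rank 83, signal 249.7, replicate ranks 100 and 55, summit at -618 bp), and snrp-40.1, a U5 snRNP protein gene (rank 631, signal 108.1, replicate ranks 674 and 743, summit at 28 bp).

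Integrator, the complex that cleaves the 3′ ends of snRNA transcripts, had a candidate at 8 of 11 genes and reproducible peaks at ints-8 and ints-4. The ints-8 region ranked 364, with 413 and 374 in replicates 1 and 2 and its summit at -91 bp from the start. The ints-4 region ranked 365, with 396 and 366 in the replicates and its summit 37 bp downstream. Of the genes for the snRNA-activating complex, 4 of 8 had a candidate and 0 a reproducible peak, and of a list of RNA polymerase subunit and general transcription factor genes (ama-1, rpc-1, rpc-2, tbp-1 and brf-1) 4 of 5 and 0. The lists were compiled with earlier results of these data in view, so these shares are a description and were not tested against the background.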

How the data were processed

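ChIP-seq regions came from 2 biological replicates of 1 group. The authors deposited narrowPeak lists in ce11 for each replicate, for both pooled and for the IDR-thresholded set, made from alignments and a control, per the deposited file listing. The deposited signal values are relative to control in arbitrary units and comparable within a list only. The deposited significance is a −log10 q. No source used here gives the aligner, caller, versions, IDR threshold or read counts, so depth is unknown. Lists in ce10 served only for their length (1138 regions).

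Genes came from Ensembl release 115, with names from RefSeq for 129 of 129 snRNA genes by WormBase identifier. Candidates were assigned by summit, with Python 3.11.15, pandas 2.3.3 and Biopython 1.88, and the assignment was tested on simulated regions. Sequence groups joined genes at 75% identity in a global alignment, by single linkage. Ranks in a replicate are those of its best overlapping region. Intervals are exact (Clopper-Pearson, scipy 1.17.1). No hypothesis test was run, because there is 1 group and genes and regions are not replicates. Alternatives were other windows and anchors, stricter and looser lists, each replicate alone, and leaving out copies or genes near tRNA or snoRNA genes. Of 74 pathway genes listed, 67 were annotated under the name used.

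Text names the snRNA genes with a reproducible peak, the 20 best-ranked, the best of each group, those either side of the list's end, and pathway genes with a reproducible peak; others, such as copies of W05B2.8 and genes without a candidate, were named after their values were seen. The members and lists were chosen with earlier results of these data known. Gene sequences of the other groups are not reported here.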

Additional observations from a re-analysis of the deposited data

How the results depend on the processing

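Of 51 alternative values, 43 stayed within 1.5 times the count reported (or within 1 SD, 85.6 bp, between replicates for the median position), 8 moved and 0 reversed. Limiting the pooled list to its top 10000 candidates left 28 snRNA genes with a candidate in 24 distinct regions, 4 in the W05B2.8 group and 24 among the other genes. The top 5000 left 20 genes. Fewer regions were searched in both. Leaving out genes with an exact copy left 2 of 83 genes with a reproducible peak, both sls-2 genes, and 1 of 7 W05B2.8 group genes with a candidate, since W05B2.8 and C28A5.7 are themselves copies. That 1 gene was F36A4.23, which does not hold ACAGAGA. With 1 replicate left out, the count of genes with a candidate ran from 45 to 48, distinct regions from 41 to 43, the W05B2.8 group from 6 to 10 and the others from 35 to 42. IDR needs both replicates, so the top 652 regions of the remaining replicate's list stood in for the reproducible peaks. They gave 4 genes either way, a count that does not measure reproducibility. The median summit position ran from 33 bp without replicate 1 to 154 bp without replicate 2, and the cause of this difference was not tested. A pooled q of at most 0.05 kept 4 snRNA genes, and a list as long as that of ce10 gave 5, F36A4.23 being added. Grouping by the letters ACAGAGA, an alternative chosen after seeing the data, gave 6 of 22 genes with a candidate, against 43 of 107 others. No paired analysis was possible because there is 1 group with no second group to pair. Depth is unknown, so a gene without a candidate is not shown to lack binding.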
